A study of Mus musculus with 28 samples.

Results

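The neural crest regulators described here are 7 transcription factor genes, Snai1, Snai2, Twist1, Foxd3, Sox10, Tfap2a and Msx1, out of 21887 annotated protein-coding genes. They were chosen by name for their known role, with earlier results of these data known. Each was described by every peak summit inside the gene or within 10 kb of it. The data came from neural stem cells (NSCs) grown from male E14.5 mouse brain on a C57BL/6 x FVB/N background, and all groups shared that source. Null cells were homozygous for the MommeD1 allele of Smchd1 (Smchd1MommeD1/MommeD1), and their counterparts were Smchd1 wild-type cells. Smchd1 is a noncanonical SMC protein that binds chromatin and is needed for X inactivation and for silencing some autosomal gene clusters.

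The neural crest is a migratory cell population that leaves the border of the neural tube by an epithelial-to-mesenchymal transition and forms peripheral neurons and glia, melanocytes and much of the facial skeleton. Tfap2a and Msx1 act early, at the border of the neural plate. Snai1, Snai2, Foxd3, Sox10 and Twist1 act in the crest cells that follow. Trimethylation of histone H3 lysine 27 (H3K27me3), laid down by Polycomb proteins, is known for holding developmental regulators of other lineages silent. Trimethylation of lysine 4 (H3K4me3) marks active or poised promoters. Ctcf binds DNA through zinc fingers at insulators and holds the ends of chromatin loops.

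Smchd1, H3K27me3 and H3K4me3 were mapped by chromatin immunoprecipitation (ChIP) with 2 libraries per genotype, and methylated DNA was enriched with a methyl-CpG binding protein domain (MBD) with 3 libraries per genotype. Ctcf ChIP had 2 libraries each for null cells, for wild-type cells that received a non-silencing hairpin (shRNA) and for untransduced wild-type cells. All 3 Ctcf lists were called against the same 2 libraries of wild-type cells with Ctcf hairpins (Ctcf.6 and Ctcf.7), so they share a control. The Smchd1 list was called against Smchd1 ChIP in null cells, so there is no null Smchd1 list. The deposited lists hold single-base summits on mm10, 1 list per group with its libraries combined, so no value below has a replicate error and no test between genotypes was possible. Each summit carries the authors' score, a significance on the −log10 scale, which ranks summits within a list and cannot be compared between lists.

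The lists differ in length, which limits every genotype comparison. On assembled chromosomes they held 407 Smchd1 summits, 77 null and 732 wild-type H3K27me3 summits, and 24201 null and 23449 wild-type H3K4me3 summits. The Ctcf lists held 11920 summits in null, 20483 in non-silencing and 8292 in untransduced wild-type cells. The MBD lists held 126631 summits in the list named D1 and 156188 in the list named WT. The sample titles and the list names disagree on which MBD list is which genotype, so these lists are given by name only. The depth behind each list is unknown. As a check of the cell type, all 12 neural stem cell genes of a marker list, among them Sox2, Nes and Olig2, had H3K4me3 within 10 kb in both genotypes. Such proximity is common: 5 of 6 neuron genes and 2 of 4 genes each for oligodendrocytes, fibroblasts and endothelium also had H3K4me3. So had 2 null and 3 wild-type of 4 blood genes. Genes such as Dcx, Mag, Col1a2, Dcn, Cdh5, Tek and Cx3cr1 had no H3K4me3 in either list. H3K27me3 was listed at 0 of the 12 neural stem cell genes, and at 0 genes of each of these other cell types, in both genotypes. Only 0.320% of coding genes in null and 1.24% in wild-type cells had it, so its absence does not tell the cell type.

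The 7 genes fell into 4 chromatin states. Snai1 and Snai2 had H3K4me3 and no H3K27me3. Tfap2a and Msx1 had both marks inside or within 10 kb of the gene, though not necessarily at the same site. Twist1 and Foxd3 had H3K27me3 alone. Sox10 had neither mark within 10 kb. Smchd1 summits were listed at Snai2, Tfap2a and Msx1, that is at 3 of 7 members, against 1.11% of all protein-coding genes. H3K27me3 was listed at 4 of 7 in null cells, against 0.320% of coding genes, and at the same 4 in wild-type cells, against 1.24%. H3K4me3 was listed at 4 of 7 in both genotypes, where 66.8% of coding genes in null and 67.1% in wild type had it, so for this mark the members were near the background. Since the genes were chosen with earlier results of these data known, these shares carry no test.

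**Figure D1:**
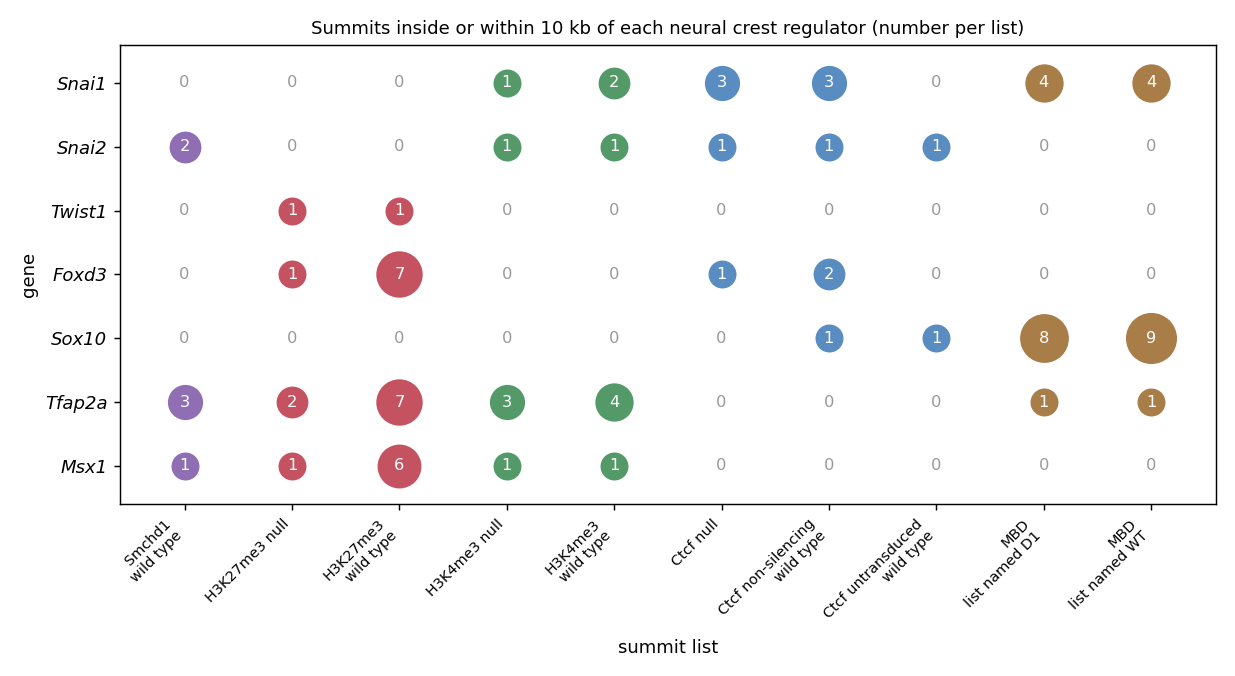
Number of summits inside or within 10 kb of each gene (rows) in each summit list (columns), with circle area growing with the number and grey zeros where none was listed. H3K27me3 sits at Twist1, Foxd3, Tfap2a and Msx1, Smchd1 at Snai2, Tfap2a and Msx1, and MBD summits at Snai1, Sox10 and Tfap2a.

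Snai2 encodes the zinc finger repressor Slug, which binds E-box sequences in genes of epithelial adhesion, and lies on chromosome 16 from 14705852 to 14709395 (mm10). It had 2 of the 407 Smchd1 summits, both outside the gene on its lower-coordinate side. The higher one, at 16:14701538, was 4314 bp away with a score of 17.7, rank 9 in the list. The lower one, at 16:14705530, was 322 bp away with a score of 15.3, rank 16. Both positions and both scores were identical in the longer Smchd1 list called at 5e-3, which holds 1105 summits. That list comes from the same libraries at a looser threshold, so it is not separate evidence.

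These 2 summits had different neighbours. The distal one coincided with Ctcf in every list: 4 bp from the null summit at 16:14701542 (score 12.99), 17 bp from the non-silencing summit at 16:14701521 (18.8) and 11 bp from the untransduced summit at 16:14701549 (10.3). It had no H3K4me3 summit within 1 kb. The 3 Ctcf positions lay within 28 bp of each other, so Ctcf was listed here in null as well as in wild-type cells. Snai2 was the only member with Ctcf in all 3 lists, which held for 22.6% of coding genes.

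The proximal Smchd1 summit lay beside H3K4me3 and had no Ctcf summit within 1 kb in any list. The null H3K4me3 summit, at 16:14705654 (27.7), was 124 bp from it, and the wild-type one, at 16:14705910 (16.1), was 380 bp from it. The 2 H3K4me3 summits stood 256 bp apart, the null one outside the gene and the wild-type one 58 bp inside it. H3K27me3 was absent from both lists at Snai2, with the nearest wild-type summit 3877.1 kb away. MBD summits were also absent within 10 kb, the nearest lying 13832 bp away in the list named D1 and 13814 bp away in the list named WT.

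**Figure D2:**
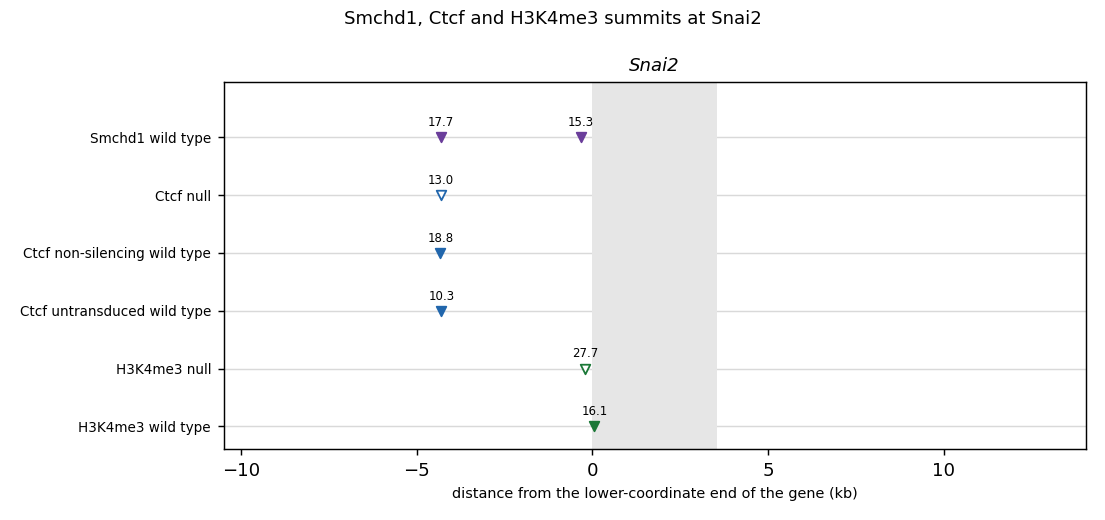
Summits of Smchd1, Ctcf and H3K4me3 at Snai2 by distance from the lower-coordinate end of the gene in kb (grey, the gene), with the authors' score above each, hollow symbols for null and filled for wild-type lists. The distal Smchd1 summit (score 17.7) stands over Ctcf of all 3 lists, and the proximal one (15.3) beside H3K4me3.

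Tfap2a encodes the transcription factor AP-2 alpha, an early regulator of the neural plate border and of crest induction, and lies on chromosome 13 from 40713802 to 40738238. It had 3 Smchd1 summits, all inside the gene, with low scores for this list. They were at 13:40722799 (score 5.90, rank 248 of 407), 13:40723205 (3.53, rank 402) and 13:40731505 (4.50, rank 351). The last also lies inside the long noncoding RNA gene Gm26688, which overlaps Tfap2a from 40727808 to 40735162.

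Each of these summits lay beside wild-type H3K4me3, at 47, 14 and 156 bp in the same order. The distances to null H3K4me3 were 416, 10 and 816 bp. H3K4me3 at Tfap2a was listed in 2 places in wild-type cells, and in null cells at both of these and at a further one. The null list had 3 summits, with scores of 31.7 at 13:40723215, 11.3 at 13:40730689 and 4.86 at 13:40733420. The wild-type list had 4, with scores of 12.0 and 15.0 at 13:40722752 and 13:40723219 in one patch and 7.66 and 6.35 at 13:40730891 and 13:40731349 in the other. The highest null summit and the highest wild-type one were 4 bp apart. The null summit at 13:40733420 was the one of 6 null H3K4me3 summits at the members with no wild-type summit within 1 kb.

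The Smchd1 list called at 5e-3 added 2 summits at Tfap2a, at 13:40733596 (3.53) and 13:40733960 (5.15), and held 5 there. In that list, from the same libraries, the same 3 members had a summit, against 3.07% of coding genes. The second added summit lies 165 bp upstream of an annotated transcription start on the minus strand and inside its promoter window (RefSeq, GRCm38.p6, 250 bases before to 50 after the start), which is shown for that reason with CpG dinucleotides, the substrate of DNA methylation, in capitals. It holds 15 CpGs, more than 65.4% of 32851 such windows.

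Tfap2a, chr13:40733746-40734045, minus strand: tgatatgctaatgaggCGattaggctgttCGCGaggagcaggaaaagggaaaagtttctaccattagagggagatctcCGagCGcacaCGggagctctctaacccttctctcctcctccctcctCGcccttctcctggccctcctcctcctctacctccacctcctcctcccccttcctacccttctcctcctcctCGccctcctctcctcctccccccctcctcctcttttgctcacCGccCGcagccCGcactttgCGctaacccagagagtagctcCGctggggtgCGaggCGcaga

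H3K27me3 was listed around and inside Tfap2a in both genotypes, with fewer summits in the null list. The null list held 2, at 13:40712331 (3.73) outside the gene and 13:40732025 (4.81) inside it. The wild-type list held 7, with scores of 4.50 at 13:40705124, 6.75 at 13:40709737, 4.84 at 13:40727860, 5.95 at 13:40732308, 4.46 at 13:40732895, 4.46 at 13:40734108 and 4.51 at 13:40738900. The inner null summit was 283 bp from the wild-type summit at 13:40732308, so the same part of the gene was listed in both. The wild-type summit at 13:40734108 stood 148 bp from the 5e-3 Smchd1 summit in the promoter window. The outer null summit had no wild-type counterpart within 1 kb.

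Msx1 encodes a homeodomain repressor of the neural plate border and the developing face, and lies on chromosome 5 from 37820491 to 37824585, on the minus strand. It had 1 Smchd1 summit, at 5:37824429 with a score of 4.70 (rank 332 of 407), which lay 156 bp downstream of the annotated start. The null H3K4me3 summit at 5:37824313 (14.3) was 116 bp from it and the wild-type one at 5:37824442 (9.90) was 13 bp from it. Smchd1 and H3K4me3 thus met just inside the gene. The promoter window beside them holds 29 CpGs, more than 87.1% of windows, and 1 E-box CACCTG, the letters bound by Snail-family repressors, with its first base 210 bases before the start. On either strand (CACCTG or CAGGTG), 20.2% of all windows hold that motif.

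Msx1, chr5:37824536-37824835, minus strand: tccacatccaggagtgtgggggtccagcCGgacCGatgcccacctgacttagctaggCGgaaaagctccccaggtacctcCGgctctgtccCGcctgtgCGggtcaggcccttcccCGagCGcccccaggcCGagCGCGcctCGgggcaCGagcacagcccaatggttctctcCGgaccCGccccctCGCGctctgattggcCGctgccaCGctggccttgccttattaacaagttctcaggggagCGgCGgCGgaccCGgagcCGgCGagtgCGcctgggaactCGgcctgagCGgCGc

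H3K27me3 was listed across Msx1 and its upstream flank in wild-type cells. The null list held 1 summit, at 5:37823158 (3.73) inside the gene. The wild-type list held 6, with scores of 4.51 at 5:37821182, 4.51 at 5:37822863, 5.60 at 5:37823552, 5.60 at 5:37826657, 5.60 at 5:37827233 and 3.49 at 5:37828976. The first 3 lie inside Msx1, the first also inside its antisense gene Msx1os, and the last 3 inside the noncoding gene Gm33993. The null summit lay 295 bp from the second wild-type summit and 394 bp from the third.

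Tfap2a and Msx1 were the members with Smchd1, H3K4me3 and H3K27me3 each inside or within 10 kb in wild-type cells. That combination was listed at 0.110% of coding genes. H3K4me3 with H3K27me3, whatever the Smchd1 state, was listed at 0.754%. These combinations need not share a site. Of the 21 wild-type H3K27me3 summits at the members, 2 had wild-type H3K4me3 within 1 kb, at 890 and 959 bp. Of the 5 null ones, 0 had null H3K4me3 within 1 kb. No background share was computed for this sharing. Over the 3 members with Smchd1, 5 of 6 summits had wild-type H3K4me3 within 1 kb (13 to 380 bp, median 47 bp) and 5 had null H3K4me3 (10 to 816 bp, median 124 bp). The remaining summit was the distal one at Snai2, the only one of the 6 with Ctcf. Wild-type H3K27me3 lay within 1 kb of 2 of the 6, at 803 and 877 bp, and MBD within 1 kb of 0. The shares of all 407 Smchd1 summits with these neighbours were not computed, so the counts are not known to be particular to these members.

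Foxd3 encodes a forkhead factor of premigratory crest cells and lies on chromosome 4 from 99656299 to 99658671. It had the most wild-type H3K27me3 summits together with Tfap2a. The null list held 1, at 4:99651160 (3.73), 5139 bp outside the gene. The wild-type list held 7, none inside the gene: 4 on the upstream side with scores of 4.76 at 4:99652350, 5.60 at 4:99653806, 4.51 at 4:99654080 and 4.50 at 4:99654824, and 3 on the downstream side with scores of 7.95 at 4:99659004, 4.08 at 4:99659862 and 5.95 at 4:99660544. The summit of 7.95 ranked 3 of 732. The null summit lay outside the wild-type block, 1190 bp beyond its outermost upstream summit, and 326 bp from a non-silencing Ctcf summit. The nearest H3K4me3 summits were 56.7 kb away in null and 57.1 kb away in wild-type cells.

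Twist1 encodes a basic helix-loop-helix factor of crest-derived mesenchyme and lies on chromosome 12 from 33957671 to 33959831. It had 1 H3K27me3 summit in each list. The null one, at 12:33964836 (3.73), was 5005 bp outside the gene. The wild-type one, at 12:33958450 (4.41, rank 522 of 732), lay inside it, 779 bp downstream of the start. H3K4me3, Ctcf and Smchd1 were all far away: the nearest H3K4me3 summit was 527.9 kb distant in null and in wild-type cells.

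H3K27me3 without H3K4me3, as at Foxd3 and Twist1 in wild-type cells, was listed at 0.484% of coding genes. The promoter windows of both are shown, again with CpGs in capitals, since wild-type H3K27me3 was listed on both sides of the Foxd3 window and downstream of the Twist1 window. The Foxd3 window holds 25 CpGs, more than 81.6% of windows. The Twist1 window holds 27, more than 84.5%. The median of all windows was 7.

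Foxd3, chr4:99656049-99656348, plus strand: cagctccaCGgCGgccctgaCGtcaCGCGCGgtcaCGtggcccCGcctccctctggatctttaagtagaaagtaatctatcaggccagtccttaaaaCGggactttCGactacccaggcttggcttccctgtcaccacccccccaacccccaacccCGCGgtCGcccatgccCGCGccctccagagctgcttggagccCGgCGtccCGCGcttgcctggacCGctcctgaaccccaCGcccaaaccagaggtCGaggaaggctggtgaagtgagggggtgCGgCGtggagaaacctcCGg

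Twist1, chr12:33957421-33957720, plus strand: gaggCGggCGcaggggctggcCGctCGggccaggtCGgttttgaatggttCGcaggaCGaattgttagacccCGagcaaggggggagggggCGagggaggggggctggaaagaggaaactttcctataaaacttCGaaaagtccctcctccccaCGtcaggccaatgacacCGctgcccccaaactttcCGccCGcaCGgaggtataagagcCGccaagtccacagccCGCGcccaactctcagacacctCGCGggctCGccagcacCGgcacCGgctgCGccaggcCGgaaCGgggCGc

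Across the 4 genes with the mark, the null H3K27me3 list held 5 summits and the wild-type list 21. Some of these stand close together, and merging summits within 1 kb left 5 null and 14 wild-type ones at the 4 genes. All 4 were listed in both genotypes, against 0.306% of coding genes, and 0 were listed in wild type only (0.932% of coding genes) or in null only (0.0137%). Of the 271 coding genes with wild-type H3K27me3, 24.7% also had a null summit. Foxd3, Tfap2a and Msx1 each had at least 6 wild-type summits, a number chosen after their values were seen, which 0.228% of coding genes reached. Within 1 kb, 2 of the 5 null summits had a wild-type one and 4 of the 21 wild-type summits had a null one. With genes counted within 5 kb instead of 10 kb, the null list kept Tfap2a and Msx1 and lost Twist1 and Foxd3, whose null summits lay 5005 and 5139 bp outside.

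Most null summits at these genes were below the middle of their list. Of the 5, 4 had a score of 3.73, under the list's median of 4.46 and shared by 14 of the 77 null summits, and the fifth, at Tfap2a, had 4.81. Wild-type scores were also tied in steps, with 252 summits at 4.51 and 100 at 5.60. With as many wild-type as null summits kept (the 77 highest), the members held 5 null and 4 wild-type summits. Ties at 5.60 were broken there by chromosome and position, an arbitrary order. With all 154 that reach the tied score of 5.60 the members held 8 wild-type summits. The smaller number in null cells at these genes therefore cannot be told apart from the shorter null list.

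**Figure D3:**
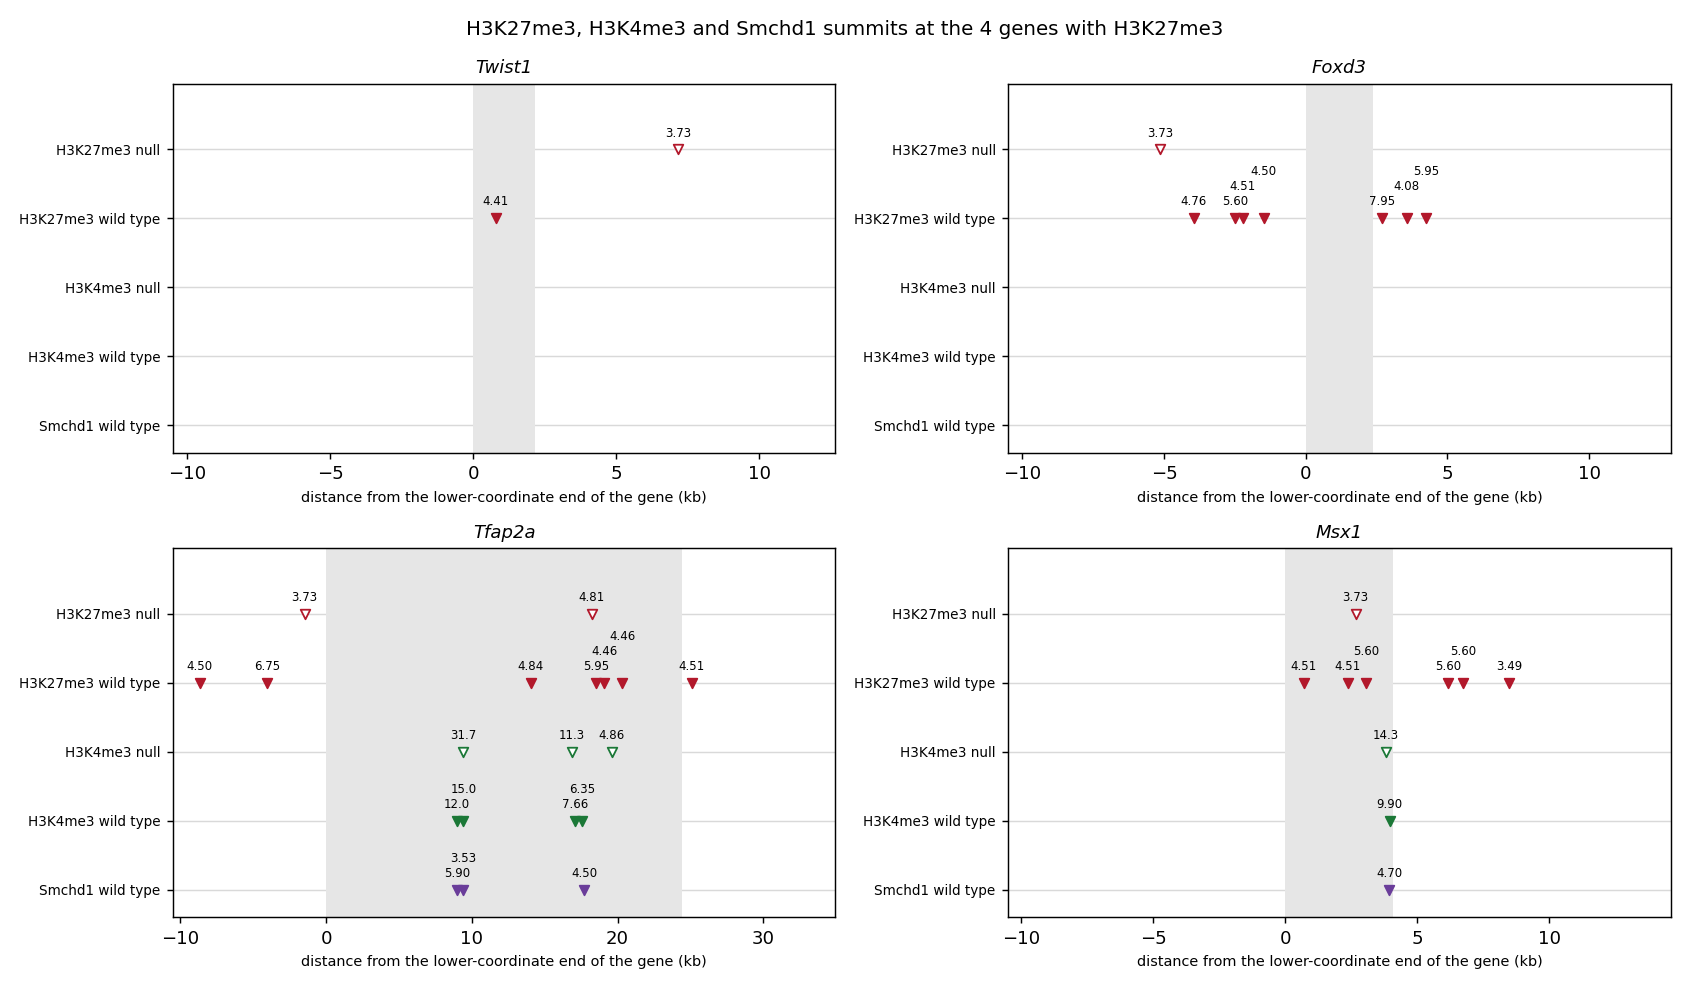
Summits of H3K27me3, H3K4me3 and Smchd1 at Twist1, Foxd3, Tfap2a and Msx1 by distance from the lower-coordinate end of each gene in kb (grey, the gene; Twist1 and Foxd3 are read left to right, Tfap2a and Msx1 right to left), with scores above, hollow symbols for null and filled for wild-type lists. The wild-type H3K27me3 list has 1, 7, 7 and 6 summits and the null list 1, 1, 2 and 1.

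Snai1 encodes the Snail repressor, a paralogue of Snai2, and lies on chromosome 2 from 167538195 to 167542814 on the plus strand. Like Snai2 it had H3K4me3 at the gene and no H3K27me3, but its nearest Smchd1 summit was 7170.9 kb away in the 5e-4 list and 4698.4 kb away in the 5e-3 list. The null H3K4me3 list held 1 summit, at 2:167538247 (4.12). The wild-type list held 2, at 2:167537813 (9.19) and 2:167538231 (10.2), the second 16 bp from the null one. These scores are low in lists whose medians were 24.6 in null and 26.5 in wild type.

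Ctcf at Snai1 was listed in null and non-silencing wild-type cells and absent from the untransduced list, whose nearest summit was 98.7 kb away. The null summits were at 2:167528444 (6.66), 2:167532373 (7.36) and 2:167537998 (9.76). The non-silencing summits were at 2:167528463 (4.19), 2:167532332 (12.6) and 2:167537946 (18.8). The 3 pairs were 19, 41 and 52 bp apart. As the 2 wild-type lists differ here, no genotype difference can be read from the null list.

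Motifs in promoter windows were searched as exact letters, and near matches were not scored. An absent match therefore does not show that a Ctcf site is missing. A longer core of the Ctcf motif than the one given below, found in 2.43% of windows, also had no exact match at Snai1. The third Ctcf pair fell in the Snai1 promoter window, 197 bp upstream of the start in null and 249 bp upstream in non-silencing cells, which is why the window is shown. It holds 34 CpGs, more than 92.3% of windows, and 1 E-box CACCTG with its first base 126 bases before the start. The letters GGNGGCAG, part of the Ctcf motif and found in 12.6% of windows on either strand, had no match here, and of the 6 windows read only that of Twist1 held them.

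Snai1, chr2:167537945-167538244, plus strand: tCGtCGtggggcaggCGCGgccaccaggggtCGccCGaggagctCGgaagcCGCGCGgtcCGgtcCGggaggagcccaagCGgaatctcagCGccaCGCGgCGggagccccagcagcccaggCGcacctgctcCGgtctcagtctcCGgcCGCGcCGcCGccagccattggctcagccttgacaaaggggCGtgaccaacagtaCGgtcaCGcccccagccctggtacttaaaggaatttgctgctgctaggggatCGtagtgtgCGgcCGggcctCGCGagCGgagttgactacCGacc

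Snai1 carried methylated DNA downstream of this window in both lists, and the list named WT also had a summit upstream of it, at 2:167531092. The MBD list named D1 held 4 summits, with scores of 60.4 at 2:167538924, 58.2 at 2:167542081, 10.9 at 2:167546685 and 16.0 at 2:167546964. The list named WT held 4, with scores of 10.3 at 2:167531092, 79.2 at 2:167538921, 61.5 at 2:167542067 and 35.8 at 2:167546977. The 2 highest of each list lay inside the gene, the first of them 729 bp (D1) and 726 bp (WT) downstream of the start.

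Sox10 encodes a high-mobility-group box factor that keeps crest cells multipotent and later drives glial and oligodendrocyte development, and lies on chromosome 15 from 79154913 to 79164490. Its region held MBD summits: 8 in the list named D1, with scores of 9.08 to 46.3, and 9 in the list named WT, with scores of 5.63 to 58.2. An MBD summit within 10 kb was listed at 79.1% (D1) and 82.1% (WT) of coding genes. The share with as many summits as Sox10 was not computed. Inside the gene lay 2 in the list named D1 and 3 in the list named WT. The highest inside were at 15:79156521 (46.3, D1) and 15:79156518 (53.8, WT). Of those outside, 4 per list lay in the neighbouring gene Polr2f, which encodes an RNA polymerase subunit.

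Ctcf near Sox10 was listed in wild-type cells of both kinds and not in null cells. The non-silencing summit was at 15:79148783 (8.62) and the untransduced one at 15:79148779 (9.54), 4 bp apart and inside Polr2f, with no null summit nearer than 78.9 kb to Sox10. This is a single site in pooled lists, and its absence from the null list was not tested. The share of coding genes with this Ctcf pattern was not computed, nor were those for the patterns of Snai1 and Foxd3. The labels of the untransduced wild-type samples cite a wild-type summit list beside a coverage track named for null cells, so the genotype of that list rests on its own name and the sample titles. Foxd3 showed another pattern, with a null summit at 4:99661192 (7.89), non-silencing summits at 4:99650834 (6.15) and 4:99661198 (13.4), and no untransduced summit within 10 kb.

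**Figure D4:**
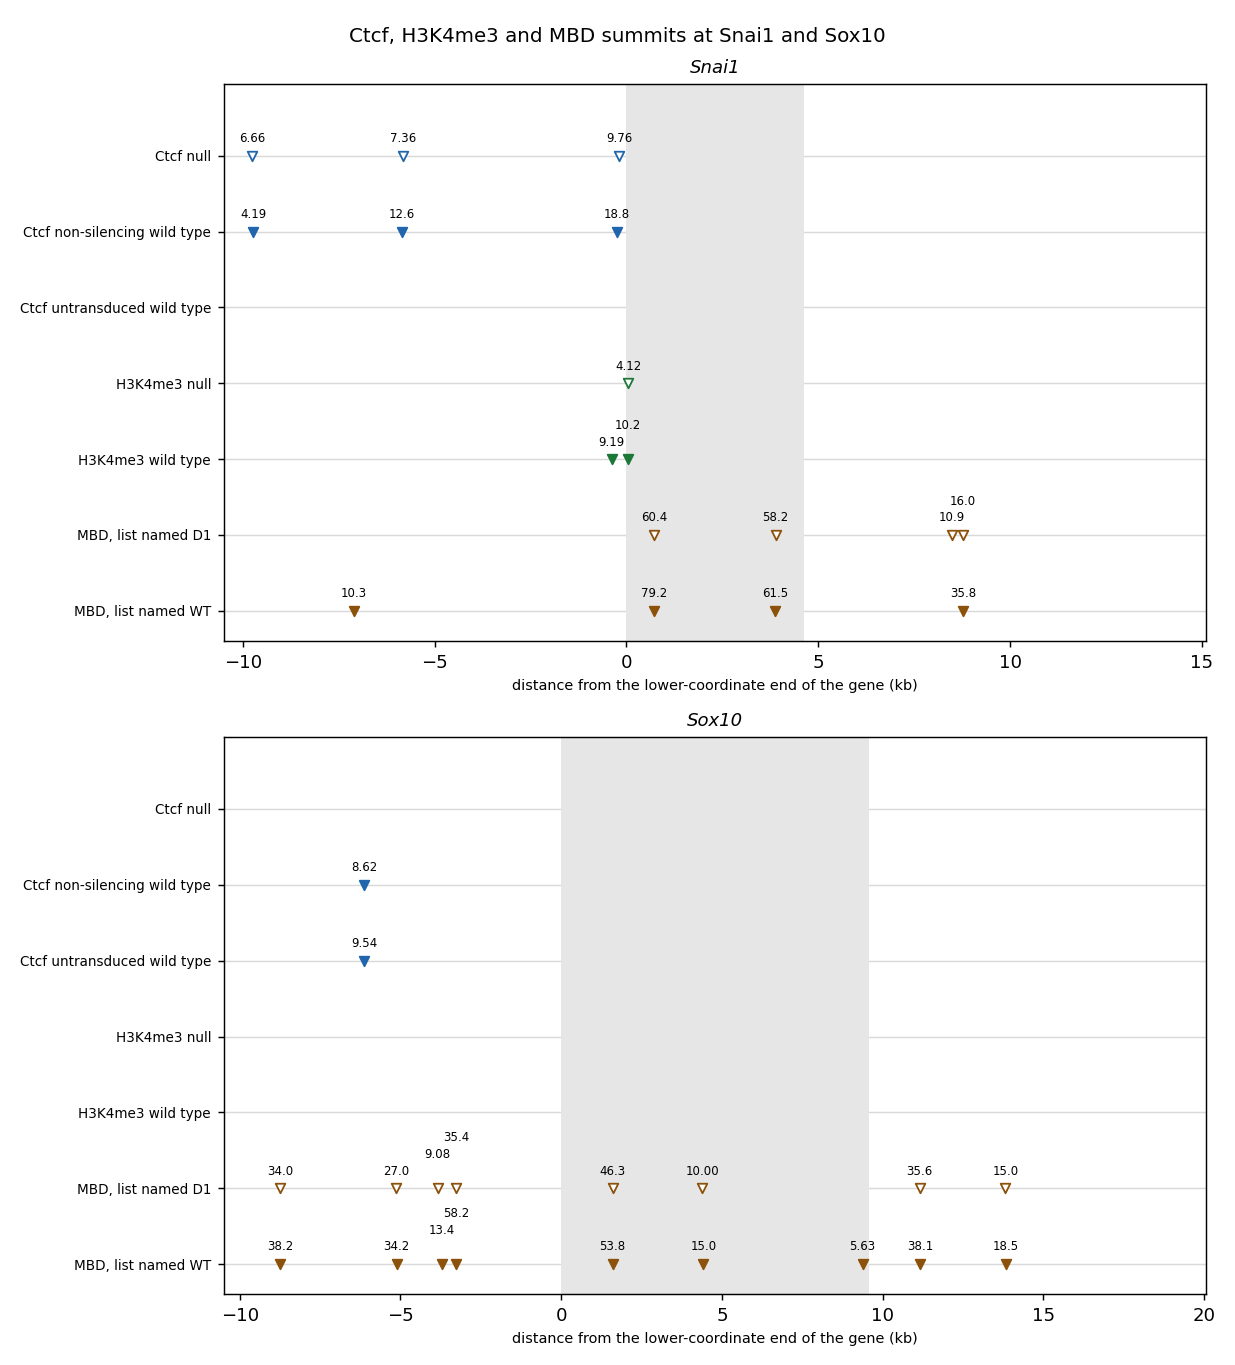
Summits of Ctcf, H3K4me3 and MBD at Snai1 and Sox10 by distance from the lower-coordinate end of each gene in kb (grey, the gene), with scores above, hollow symbols for null and D1-named and filled for wild-type and WT-named lists. Ctcf pairs of null and non-silencing lists stand upstream of Snai1, and MBD summits of both lists stand in pairs across Sox10, apart from 1 at the upper end of the gene (score 5.63) that is in the WT-named list alone.

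Ctcf was listed at 3 of 7 members in null cells, 4 in non-silencing and 2 in untransduced wild-type cells, against 37.2%, 50.6% and 29.5% of coding genes, so Ctcf near these genes was as common as near genes at large. MBD summits were listed at the same 3 of 7 members, Snai1, Sox10 and Tfap2a, in both lists. Among coding genes 79.1% had one in the list named D1, 82.1% in the list named WT and 78.8% in both. Tfap2a had 1 in each list, at 13:40736173 (35.8, D1) and 13:40736155 (26.6, WT). Both H3K4me3 lists marked Snai1, Snai2, Tfap2a and Msx1 (65.9% of coding genes had both), and neither marked Twist1, Foxd3 and Sox10 (31.9% had neither).

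The limit of 10 kb mattered most for MBD, since both lists reached 5 members within 20 kb and all 7 within 50 kb. Just inside the limit were the outermost Ctcf summits of Snai1, 9751 bp away in null and 9732 bp away in non-silencing cells. Just outside were a non-silencing Ctcf summit 10987 bp from Tfap2a and the H3K4me3 summits nearest to Sox10, 12360 bp away in null and 13431 bp away in wild-type cells, both inside Polr2f. The nearest MBD summits of Msx1 were also just outside, 12739 bp away in the list named D1 and 12737 bp away in the list named WT, as were those of Snai2 given above.

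A further 32 neural crest genes, taken from a list of known regulators, were looked up in the same way. Smchd1 was listed at 1 of 32 (1.11% of coding genes), Tfap2b, which encodes the related factor AP-2 beta and had 2 summits with a top score of 9.25. The 5e-3 list added Pax3, Pax7, Zic1 and Mycn, and so held 5 of 32 (3.07% of coding genes). H3K27me3 was listed at 1 of 32 in null cells and at 8 in wild-type cells, against 0.320% and 1.24% of coding genes. The 1 was Hand2, a regulator of sympathetic neurons and heart, with 1 null summit (3.41) and 10 wild-type summits (top score 4.76). Those listed in wild type only, as were 0.932% of coding genes, included Pax3 (6 summits, top score 5.60), Pax7, Dlx5 (5 summits, top score 5.95), Msx2, Foxc2 and Wnt1 (4 summits, top score 5.60). H3K4me3 was listed at 24 of 32 in null and 25 in wild-type cells, near the 66.8% and 67.1% of coding genes, and Bmp4, named after its values were seen, was the gene listed in wild type only.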

How the data were processed

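The submitters' processing notes name CASAVA 1.4, MACS2 and the build mm10, with no aligner (not given in the sources used here). Labels cite 1 summit list for all libraries of a group and name the controls: Smchd1 ChIP of null cells for Smchd1, Ctcf hairpin cells for Ctcf, and whole cell extract for the histone marks and MBD. The deposited summit scores are the authors' −log10 p-value or q-value, and it is not stated which. The 11 lists came from 28 libraries in 14 groups, and whether replicate libraries came from separate embryos is not stated.

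Summits on unplaced contigs were left out. Gene ends came from RefSeq on GRCm38.p6, the assembly of mm10, as did promoter windows, found for 5 of 7 genes. That table gives no exons, introns or untranslated regions. Counting used Python 3.11.15, numpy 2.4.6 and pandas 2.3.3, with figures by matplotlib 3.10.9. A pair of summits counted as shared within 1 kb. On simulated summits, 600 of 600 gene counts equalled a brute-force count. The genes, lists, motifs and alternatives were chosen with earlier results of these data known. All 7 genes were named, and the other crest genes where an H3K27me3 or Smchd1 summit was listed, except for results not reported here.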

Additional observations from a re-analysis of the deposited data

How the results depend on the processing

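Of 90 alternative values of 19 counts, 62 stayed within 1.5 times the reported one. Some of these could not move. The null H3K27me3 list cut to its 77 highest summits is the whole list. The Ctcf summits at Snai2 scored 10.3 to 18.8, so score cuts at 5 and 10 kept them all. A change from 3 members to 2 also counts as within 1.5 times, so the tally is no measure of robustness. Within 2 kb, the members with a summit numbered 2 for null H3K27me3, 1 for null Ctcf, 1 for non-silencing Ctcf and 0 for untransduced Ctcf. Within 5 kb they numbered 2 for null H3K27me3 and 1 for untransduced Ctcf. Within 20 kb and 50 kb, both MBD lists reached 5 and 7 members. At a score of at least 5, null H3K27me3 had 0 members and 0 summits, and wild-type H3K27me3 had 8 summits. As scores cannot be compared between lists, counts at a shared score cut give no contrast between genotypes. At a score of at least 10, 1 member had Smchd1, 0 had H3K27me3 in null or wild type, 1 had null Ctcf and 1 had untransduced Ctcf. The highest H3K27me3 score anywhere was 7.53 in the null list, so 0 was certain there, and 11.3 in the wild-type list. With equal list lengths the members held 4 wild-type H3K27me3 summits, or 8 with ties kept (an alternative chosen after seeing the data), against 5 null ones. Merging within 1 kb left 5 wild-type H3K4me3 summits. Sharing within 5 kb (5000 bp) gave 2 Smchd1 summits at Snai2 with Ctcf of each list, 4 null H3K27me3 summits with a wild-type one and 14 wild-type ones with a null one, and sharing within 250 bp gave 0 and 0. Smchd1 kept its 3 members at 2, 5, 20 and 50 kb and had 2 at a score of at least 5. No paired analysis was possible because the lists were called on pooled libraries and no test was made, and leaving out a replicate could not be run for the same reason. Depth is unknown, so an absent summit says only that none passed the threshold.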

Other observations

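Up to 50 kb away, the surroundings of the 7 genes held no further Smchd1 or H3K27me3 summit. No share of coding genes was computed for the flanks from 10 to 50 kb in any list. The Smchd1 and H3K27me3 lists are short, so this absence is not known to be particular to these genes. Between 10 and 50 kb, the Smchd1 lists called at 5e-4 and 5e-3 and both H3K27me3 lists had 0 summits around all 7, while H3K4me3 had 5 in null and 4 in wild-type cells, and Ctcf had 1 in null, 7 in non-silencing and 0 in untransduced wild-type cells. In the 5e-4 list the nearest Smchd1 summit to Foxd3 was 6320.7 kb away, to Twist1 9532.5 kb and to Sox10 1035.0 kb, and in the 5e-3 list 6320.7, 846.5 and 382.6 kb in the same order. Among the 243 coding genes with a Smchd1 summit within 10 kb, 60.5% had wild-type H3K4me3 and 21.8% wild-type H3K27me3. Of all coding genes, 67.1% and 1.24% had them. Against genes no longer than Tfap2a, the longest of the 7, the shares of genes with a summit were 0.887% for Smchd1, 0.382% for null H3K27me3 and 1.42% for wild-type H3K27me3.

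Of the 21 wild-type H3K27me3 summits at these genes, 0 had an MBD summit of either list within 1 kb, and the same held for the 5 null ones. No background share was computed for this. Tfap2a was the only member with both within 10 kb, and its MBD summits lay 2065 bp (list named D1) and 2047 bp (list named WT) from the nearest wild-type H3K27me3 summit. The nearest MBD summits to Msx1, Twist1 and Foxd3 were 12739, 20862 and 21639 bp away in the list named D1, and 12737, 20878 and 21654 bp away in the list named WT.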
